A study of Mus musculus with 3 samples.

Results

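The transcripts described here encode the proteins that carry a cell from the end of DNA replication through mitosis. The set holds 37 genes, from the Cdk1 kinase and its regulators to the machinery of the kinetochore, the spindle and cytokinesis. They were found by symbol in the platform annotation, which listed a probe set for 30 of the 37, among 8220 genes with a probe set of 1 symbol. Where a gene had several probe sets, the brightest on average stood for it. Ccnb1, Cdc25b, Bub1b, Kif20a, Kif2c, Tpx2 and Hmmr were not analysed here.

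RNA came from LNC, a malignant B-1 cell line grown out of lymph node from a New Zealand Black mouse, labelled as 1 yr old. One array held RNA of LNC cells given an IL-10 antisense oligonucleotide at 20 µM, 1 array held RNA of cells given a scrambled oligonucleotide at 20 µM, and 1 array held RNA of untreated cells. The labels place RNA collection at 24 h. All groups are thus 1 line without a second line or animal, and the sources used here do not say whether cultures were pooled. Each group has a single array, hence no replicate, no error within a group and no test, and a difference compares these arrays only. In whole cultures, fewer cells in G2 or mitosis and less RNA per such cell cannot be told apart.

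Entry into mitosis is driven by Cdk1 bound to a cyclin B. Wee1 holds the kinase back, Cdc25 phosphatases release it, and Plk1 and the Aurora kinases act with it. At the kinetochore the spindle checkpoint, with Bub1, Bub3, Mad2l1 and Ttk, delays anaphase by restraining Cdc20, the activator of the anaphase-promoting complex. Transcripts of these genes are low in resting and G1 cells and accumulate towards mitosis. Their promoters often carry a cell cycle homology region, CHR, which is bound by the DREAM and MuvB complexes, and CCAAT boxes, which are bound by NF-Y.

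Promoter sequences are shown for 4 members whose RNA differed in unlike ways between the arrays described below, to place their shared elements beside their values. On the array labelled antisense, Plk1 and Cdc20 were below both controls, Cdk1 slightly so, and Cks1b was above both. Each window runs from 250 bases before to 50 bases after an annotated start site in RefSeq, build GRCm38.p6. The windows are chr7:122159185-122159484 on the plus strand for Plk1, chr4:118437294-118437593 on the minus strand for Cdc20, chr10:69352863-69353162 on the minus strand for Cdk1 and chr3:89418242-89418541 on the minus strand for Cks1b. Each is written 5′ to 3′ on the strand of the gene, and capitals mark matches to the CHR motif TTTGAA or the box CCAAT on either strand (TTCAAA and ATTGG on the other).
Plk1: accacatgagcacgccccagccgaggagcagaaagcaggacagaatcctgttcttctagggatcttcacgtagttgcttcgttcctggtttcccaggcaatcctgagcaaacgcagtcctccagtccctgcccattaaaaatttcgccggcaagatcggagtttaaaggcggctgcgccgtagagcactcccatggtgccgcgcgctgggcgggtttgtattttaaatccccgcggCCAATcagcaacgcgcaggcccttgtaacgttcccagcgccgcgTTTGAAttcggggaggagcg
Cdc20: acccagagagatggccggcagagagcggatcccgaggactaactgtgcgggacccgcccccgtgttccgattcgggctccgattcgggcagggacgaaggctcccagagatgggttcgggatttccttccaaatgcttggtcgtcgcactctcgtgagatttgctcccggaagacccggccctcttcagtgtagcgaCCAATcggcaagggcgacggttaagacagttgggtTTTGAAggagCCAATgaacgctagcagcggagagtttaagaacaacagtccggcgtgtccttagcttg
Cdk1: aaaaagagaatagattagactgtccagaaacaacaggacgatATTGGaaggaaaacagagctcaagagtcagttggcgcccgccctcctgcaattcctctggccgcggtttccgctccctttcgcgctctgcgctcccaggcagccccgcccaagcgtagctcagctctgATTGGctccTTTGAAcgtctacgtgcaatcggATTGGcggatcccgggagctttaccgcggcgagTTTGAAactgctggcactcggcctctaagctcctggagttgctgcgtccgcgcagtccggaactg
Cks1b: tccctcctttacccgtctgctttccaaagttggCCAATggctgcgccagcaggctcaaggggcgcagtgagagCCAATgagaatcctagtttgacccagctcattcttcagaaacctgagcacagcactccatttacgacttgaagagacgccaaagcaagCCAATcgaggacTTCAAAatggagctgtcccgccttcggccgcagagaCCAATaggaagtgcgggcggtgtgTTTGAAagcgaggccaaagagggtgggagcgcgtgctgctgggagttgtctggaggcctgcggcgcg

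The 4 windows each held a CHR and a CCAAT match, as did 72.7% of the 22 members above the floor with a window. Whether the elements bear on the RNA levels was not tested. In Plk1 a CCAAT box began at position -14 and a CHR at position 31, counted from the start site. Cdc20 had CCAAT boxes at -53 and -8 with a CHR between them at -18. Cdk1 had CHR matches at -71 and -15, and Cks1b had them at -77 and -17, the one at -77 on the other strand.

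Across the set, a promoter window was listed for 24 of the 30 members with a probe set. A CHR match was found in 17 of the 24 genes, or 70.8%, against 14.8% of 3757 genes above the noise floor on an array and 20.2% of 27025 genes in the table. Each of these 17 also held a CCAAT match, against 6.41% of the 3757 genes with both motifs. Birc5, Tacc3 and Mad2l1 held neither motif in this window. Of the 16 members with a CHR that were above the floor, 10 read lower than both controls on the array labelled antisense. Of 6 without one, 3 did, beside 31.7% of all genes above the floor on an array. The median difference was -0.29 log2 units against untreated and -0.16 against scrambled for the 16, and -0.14 and -0.02 for the 6. The 6 include Tacc3, at -0.82 and -0.81, and the difference between the 16 and the 6 was not tested. A match is a string of letters in these windows and no measure of binding.

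**Figure D1:**
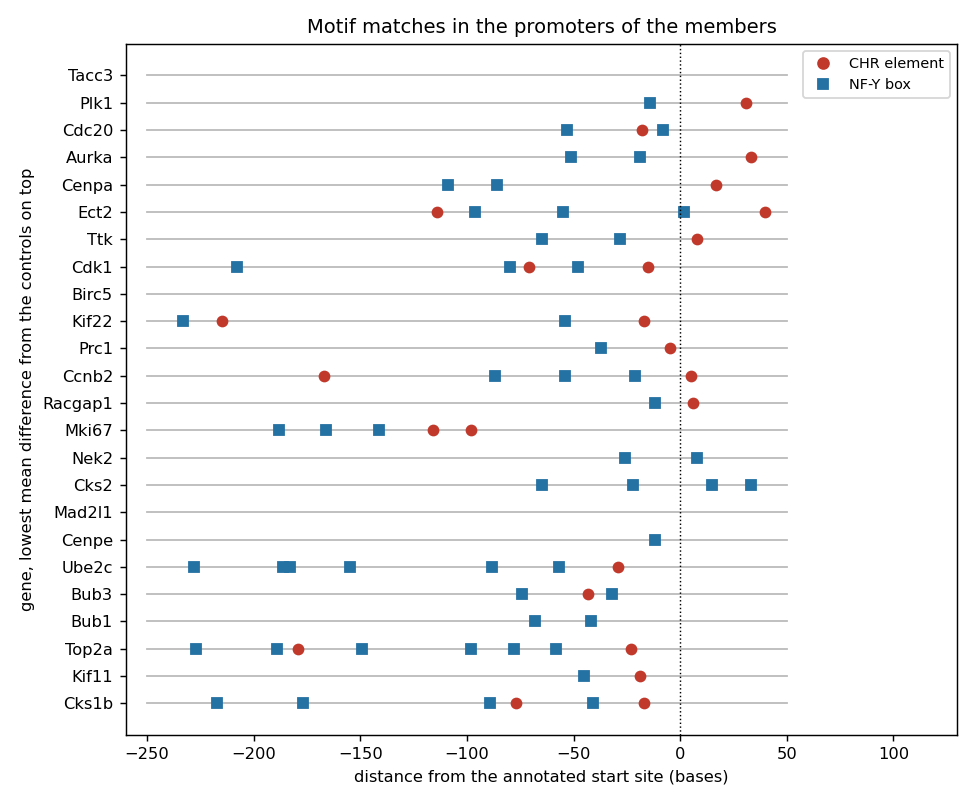
Positions of CHR matches (red circles) and NF-Y boxes, the CCAAT matches (blue squares), in the promoter windows of 24 members, 1 window per gene. The x axis is the distance in bases from the annotated start site, and genes run from the lowest mean log2 difference from the controls at the top to the highest at the bottom, with Cks1b last. Tacc3, at the top, has neither motif, while Plk1 and Cdc20 below it and Kif11 and Cks1b at the bottom have both.

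Values are intensities, the brightness of a probe set after the authors' scaling, on a linear scale. A noise floor of 595.9 was set, lower values were raised to it, and differences are of log2 intensity, so that 1 unit is a 2-fold change. Of 8220 genes, 4638 were above the floor on at least 1 array, as were 28 of the 30 members, 27 of them on the 3 arrays. Cenpe, a kinetochore motor, and Ube2c, the ubiquitin-conjugating enzyme of the anaphase-promoting complex, read below the floor on the 3 arrays. Racgap1, a regulator of the cleavage furrow, was above it only on the untreated array. Error was gauged from the controls. For each gene, the 300 genes of closest mean level were taken, and the size of control-to-control difference that 95% of them stayed under served as a yardstick. Dim genes near 1000 had a yardstick of 2.27-fold and bright ones near 16000 had 1.27-fold. Whatever the scrambled oligonucleotide did to the cells is part of it.

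Il10, the targeted gene, went against the label. Its probe set read 13946 on the array labelled antisense, against 5616 with the scrambled oligonucleotide and 5164 in untreated cells. A second probe set among the control probe sets read 6341, 3967 and 3393. Each direction below rests on the label as given. On each of the 3 arrays the B cell genes Cd79a, Cd79b, Ms4a1, Pax5 and Ighm exceeded the floor, while Cd22 and Cd5 were below it; Cd5 marks many B-1 cells. Summed B cell marker levels were 207370.2 on the array labelled antisense, against 269766 with the scrambled oligonucleotide and 237262 in untreated cells. Ighm made up most of each sum, at 145519, 183787 and 155216. It was lowest on the array labelled antisense, as were Cd79a, Ms4a1 and Pax5, while Cd79b was highest there. The T cell genes Cd3d, Cd3e, Cd3g, Cd8a and Thy1 were below the floor, with summed T cell marker levels of 1487, 2684 and 1349 that came mostly from Cd4. Of 6 myeloid and 5 fibroblast markers, 2 and 1 exceeded the floor on each array, and their sums ran from 1082 to 4193. The ratio of 3-prime to 5-prime signal of 18S ribosomal RNA was 8.13 on the array labelled antisense, against 4.48 with the scrambled oligonucleotide and 1.72 in untreated cells, and the part of RNA quality in the results was not tested. The same ratio of the actin and Gapdh messengers lay between 0.920 and 1.01 on the 3 arrays.

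Most mitotic transcripts were slightly below both controls on the array labelled antisense, and 3 passed the yardstick against both, Plk1 and Cdc20 lower and Cks1b higher; with the arrays scaled to 6 spike-in controls instead, 23 of 28 were above both controls, as were 82.4% of all genes. Of the 28 members above the floor, 17 were lower than both controls and 5 were higher, whereas among all genes 31.7% were lower than both and 37.4% higher. Of the 3518 genes above the floor on the 3 arrays, as 27 members were, 36.0% were lower than both and 37.9% higher. The median difference of the 28 was -0.27 against untreated and -0.13 against scrambled, where the median of all 4638 genes was 0.00 in both, and these medians became 0.36 and 0.36 under the spike-in scaling. That scaling moved the median of all genes to 0.59 against untreated and 0.48 against scrambled, so the members then stood -0.22 and -0.12 from it. Both comparisons use the same antisense array.

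Past the yardstick, 2 of the 28 were lower against untreated, where 4.08% of all genes were, and 1 was higher, where 4.85% were. Against scrambled, 3 were lower, beside 5.69% of all genes, and 2 were higher, beside 5.48%. Plk1 and Cdc20 were lower than both controls past the yardstick, 2 of 28 beside 2.52% of all genes, and Cks1b was the 1 higher than both, beside 2.46%. None of the 28 reached 2-fold in either direction. Among all genes 2.13% were at least 2-fold lower and 2.67% at least 2-fold higher against untreated, and 2.8% and 3.17% were so against scrambled. Counts this small, of 28, are given as a description beside those shares.

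**Figure D2:**
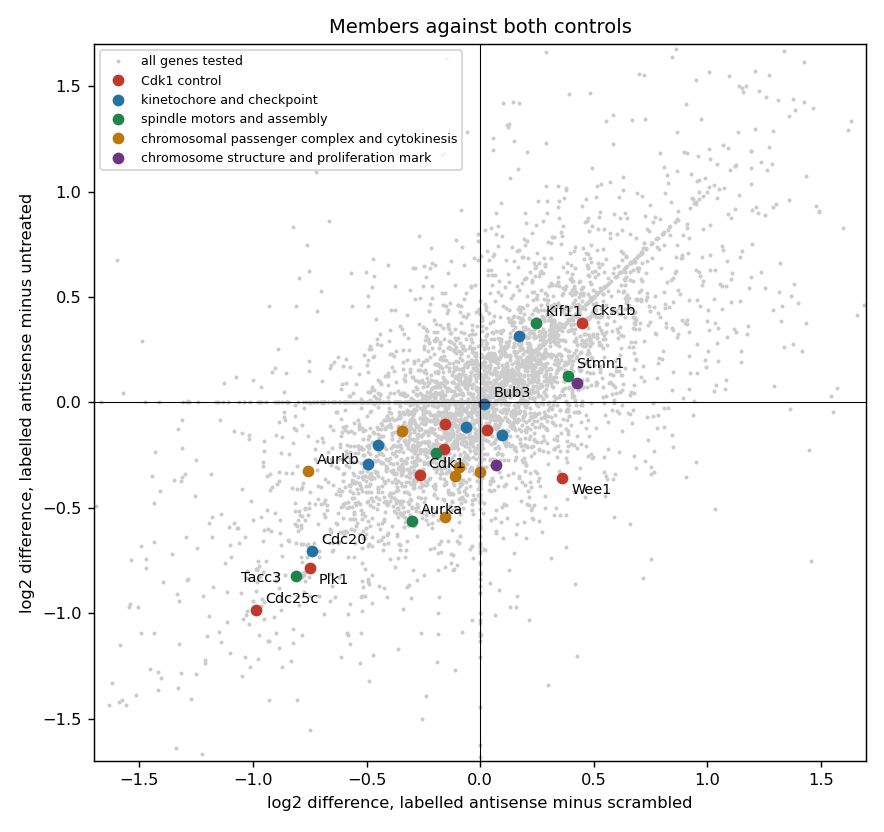
Log2 difference of the array labelled antisense from the scrambled array (x axis) and from the untreated array (y axis) for the 28 members above the floor, coloured by role, over all genes tested (grey, points beyond the axes not drawn). Of the 28 members, 17 lie at the lower left and 5 at the upper right, beside 31.7% and 37.4% of all genes. The members farthest to the lower left are Cdc25c, Tacc3, Plk1 and Cdc20. The axes share the antisense array, and with spike-in scaling 23 of the 28 and 82.4% of all genes are above both controls.

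Among Cdk1 and its regulators, only Plk1, lower, and Cks1b, higher, passed the yardstick, and the rest lay within it against either control. Plk1, the polo-like kinase that promotes mitotic entry and chromosome segregation, had an intensity of 5698 on the array labelled antisense, against 9589 with the scrambled oligonucleotide and 9815 in untreated cells. It was thus 1.68-fold lower than scrambled and 1.72-fold lower than untreated, with the controls within 0.03 log2 units of each other. Its second probe set read 3958, 6434 and 7259, with differences of -0.70 from scrambled and -0.87 from untreated. Both probe sets of Plk1 carry a suffix for probes that can be shared with other transcripts, and without suffixed probe sets the gene was not measured. Among 1017 genes with a mean intensity above 5000, 10 including Plk1 were as far below both controls, a level chosen after the values were seen. For Cdc20 that count was 13, and 60 including Cks1b were as far above both as Cks1b. At any level, ranked by the smaller difference from the controls, Plk1 was 116 and Cdc20 132 of 1468 genes lower than both. Cks1b was 516 of 1735 genes higher than both.

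Cdc25c, the phosphatase that releases Cdk1 from inhibition, read 1035 on the array labelled antisense, against 2050.4 with the scrambled oligonucleotide and 2049 in untreated cells. The controls coincided and the difference was -0.99 from either, just inside a yardstick of 1.00 at this low level. Its other probe set read 438, 656 and 856, the first below the floor, so the array labelled antisense was lowest there too. In 3 of 11 other settings the brighter probe set lay past the yardstick against both controls, among them quantile normalization, at -1.01 from each against 0.94. Without suffixed probe sets the differences were -0.52 from untreated and -0.14 from scrambled.

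Cdk1 itself read 17016 on the array labelled antisense, against 20477 with the scrambled oligonucleotide and 21608 in untreated cells. This was 1.20-fold lower than scrambled and 1.27-fold lower than untreated, at -0.27 and -0.34 against a yardstick of 0.35. The difference from untreated passed the yardstick in 4 of 11 other settings, among them quantile normalization at -0.39 against 0.34. The cyclins differed less than their kinase. Ccnb2, a B-type cyclin, read 8544 on the array labelled antisense against 9541 scrambled and 9945 untreated, and Ccna2, the cyclin of S phase and early mitosis, read 3423 against 3811 and 3674. Their differences from either control ran from -0.10 to -0.22, within the yardstick.

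Cks1b, a small subunit that binds cyclin-dependent kinases and also serves the ubiquitin ligase that degrades p27, read 19303 on the array labelled antisense, against 14159 with the scrambled oligonucleotide and 14852 in untreated cells. Its differences of 0.45 from scrambled and 0.38 from untreated passed a yardstick of 0.35. Scaled to the median of probe sets above the floor, the difference from untreated was 0.36 and no longer passed. Its relative Cks2 did not follow. It read 13014 on the array labelled antisense, against 12753 with the scrambled oligonucleotide and 14255 in untreated cells, which is 0.03 above scrambled and -0.13 from untreated. Wee1, the kinase that inhibits Cdk1, read 1076 on the array labelled antisense, between 837 scrambled and 1379 untreated. In this group of 8, 5 were lower than both controls and 1 higher, beside 31.7% and 37.4% of all genes.

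**Figure D3:**
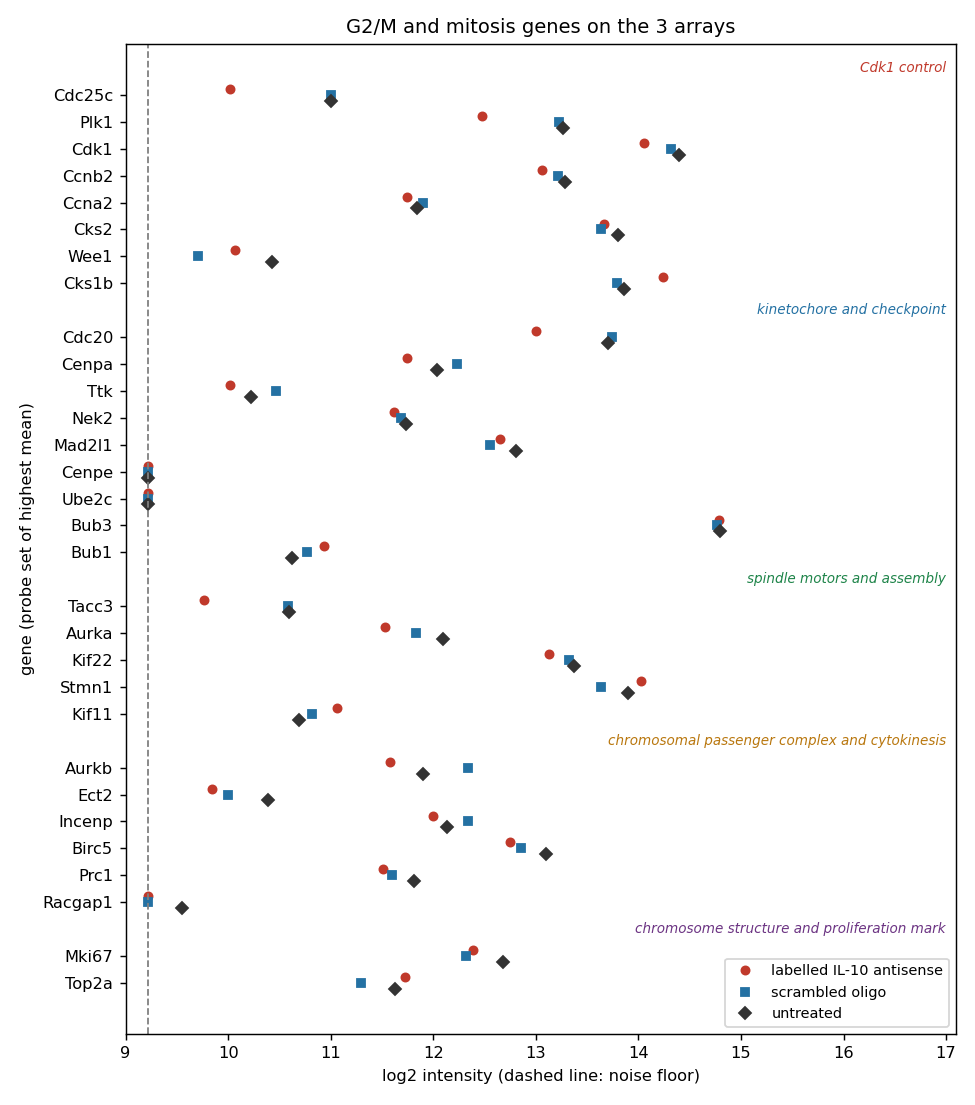
Log2 intensity of the 30 members on the array labelled IL-10 antisense (red circles), the scrambled array (blue squares) and the untreated array (dark diamonds), 1 array each, grouped by role, with the noise floor dashed. For Plk1, Cdc20, Cdc25c and Tacc3 the red point stands apart to the left of a pair of control points that nearly coincide, and for Cks1b it stands to the right. Cenpe and Ube2c lie on the floor.

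At the kinetochore and in the spindle checkpoint, Cdc20 was the member that stood apart. It read 8215 on the array labelled antisense, against 13711 with the scrambled oligonucleotide and 13382 in untreated cells. It was 1.67-fold lower than scrambled and 1.63-fold lower than untreated, at -0.74 and -0.70 against a yardstick of 0.36, while the controls differed by 0.04. Scaled to the spike-in controls, Cdc20 differed by -0.23 and -0.07 and Plk1 by -0.24 and -0.15 from scrambled and untreated, which kept the direction and lost the yardstick. Of the checkpoint genes, Ttk was lower than both controls within the yardstick, and Bub3, Mad2l1 and Bub1 were not lower than both. Bub3, an adaptor of the checkpoint, read 28199 on the array labelled antisense, against 27859.9 with the scrambled oligonucleotide and 28373 in untreated cells, so the arrays lay within 0.03 log2 units. Mad2l1, which binds Cdc20 directly, read 6440.5 against 6022 scrambled and 7177 untreated, and so lay between the controls.

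Bub1, a checkpoint kinase, read 1954 on the array labelled antisense, against 1738 with the scrambled oligonucleotide and 1573 in untreated cells, higher than both controls by 0.17 and 0.31 within a yardstick of 0.94. Second probe sets of Bub1, Bub3 and Stmn1 were below the floor on the 3 arrays and add no direction. Ttk, the checkpoint kinase also called Mps1, read 1039 against 1417 scrambled and 1195 untreated. Cenpa, the histone variant that marks centromeres, read 3422 against 4817 scrambled and 4196 untreated. Both were lower than both controls and within the yardstick, with Cenpa at -0.49 from scrambled and -0.29 from untreated. Nek2, a kinase of centrosome separation, read 3141 against 3283 and 3405, differences of -0.06 and -0.12. Of the 7 members of this group above the floor, 4 were lower than both controls and 1 higher, beside 31.7% and 37.4% of all genes.

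**Figure D4:**
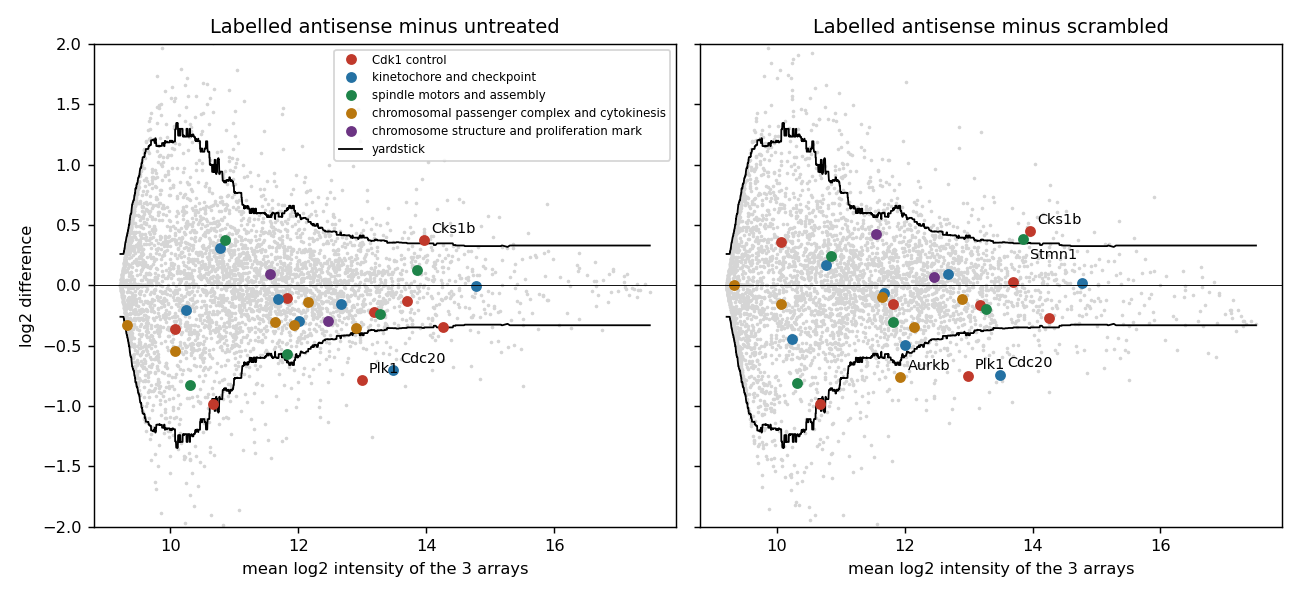
Log2 difference of the array labelled antisense from the untreated (left) and the scrambled array (right) against mean log2 intensity, with all genes in grey (points beyond the axes not drawn), members coloured by role and the yardstick as black lines. Plk1 and Cdc20 lie below the lower line and Cks1b above the upper line in both panels, and Aurkb and Stmn1 pass a line only against scrambled. Near the floor the yardstick narrows because both controls are raised to the floor.

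In the spindle group the transcripts split. Tacc3, a microtubule-binding partner of Aurora A, read 871 on the array labelled antisense, against 1529 with the scrambled oligonucleotide and 1543 in untreated cells. Its differences of -0.81 and -0.82 were close to those of Plk1, but the level is low and the yardstick there is 1.24. Aurka, the Aurora A kinase of centrosome maturation, read 2957 against 3639.6 scrambled and 4372 untreated, at -0.30 and -0.56 within a yardstick of 0.62. Kif22, a chromosome-arm kinesin, read 8943 against 10236 and 10563, at -0.19 and -0.24. These 3 of 5 were lower than both controls, beside 31.7% of all genes.

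The other 2 of this group were higher than both controls, beside 37.4% of all genes. Kif11, the kinesin that pushes spindle poles apart, read 2138 on the array labelled antisense, against 1802 with the scrambled oligonucleotide and 1648 in untreated cells, which is 0.25 and 0.37 higher within a yardstick of 0.86. Stmn1, the microtubule-destabilising protein stathmin, read 16626 against 12724 scrambled and 15225 untreated. It passed the yardstick of 0.35 against scrambled, at 0.39, and not against untreated, at 0.13. The controls themselves differed by -0.26 for Stmn1, and it no longer passed against scrambled with the mean over its probe sets, at 0.19, or scaled to the median of probe sets above the floor, at 0.34.

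In the chromosomal passenger complex and the cytokinesis group, none of 6 members read higher than both controls and 5 read lower. Among all genes 37.4% were higher than both and 31.7% lower. The 5 count Incenp by its brighter probe set only. Aurkb, the Aurora B kinase at the core of the complex, read 3052 on the array labelled antisense, against 5160.5 with the scrambled oligonucleotide and 3824 in untreated cells. It passed the yardstick of 0.63 against scrambled, at -0.76, and not against untreated, at -0.33, and the controls differed by 0.43. Birc5, the survivin subunit, read 6864 against 7414 scrambled and 8744 untreated, at -0.11 and -0.35. Incenp, the scaffold subunit, gave opposite answers from its 2 probe sets. The brighter read 4079 on the array labelled antisense, against 5176 with the scrambled oligonucleotide and 4479.7 in untreated cells, and the dimmer read 1319, 902 and 780.1. Their differences from untreated were -0.14 and 0.76, so the direction of Incenp is not settled.

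Ect2, the exchange factor that activates RhoA at the cleavage furrow, read 917 on the array labelled antisense, against 1022 with the scrambled oligonucleotide and 1336 in untreated cells. Prc1, which bundles microtubules of the central spindle, read 2912 against 3105 and 3596. Both were lowest on the array labelled antisense and within the yardstick. Racgap1 read 566 and 356 on the antisense and scrambled arrays, both below the floor, and 748 on the untreated array. The order of the first pair is thus not measured. The untreated value was 1.26-fold the floor, which puts the array labelled antisense at -0.33 from it, within a yardstick of 0.43.

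Neither member of the group of chromosome structure and proliferation mark was lower than both controls. Top2a, the topoisomerase that untangles sister chromatids, read 3379 on the array labelled antisense, against 2519 with the scrambled oligonucleotide and 3172 in untreated cells, which is 0.42 above scrambled and 0.09 above untreated within a yardstick of 0.57. Mki67, the Ki-67 antigen of proliferating cells, read 5352 against 5096 scrambled and 6571 untreated, and so lay between the controls.

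The scrambled oligonucleotide alone was set against untreated cells to see how the controls themselves lay. Of the 28 members, 19 were lower with the scrambled oligonucleotide than without it and 9 higher, beside 45.9% and 49.5% of all genes, with a median difference of -0.06. None was 2-fold lower or higher, where 1.42% and 1.68% of all genes were. Wee1 at -0.72, Ect2 at -0.39, Mki67 at -0.37, Top2a at -0.33 and Aurkb at 0.43 were the members of which the controls differed by over 0.3 while above the floor on both. For Plk1, Cdc20, Cdc25c and Tacc3, the controls differed by 0.04 or less.

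Other genes of mitosis were taken from a list outside the 37. Of 89 on the array, 73 were above the floor, and 31 of these were lower than both controls and 20 higher. Among all genes 31.7% were lower than both and 37.4% higher. The median differences of the 73 were -0.06 from untreated and -0.08 from scrambled. Beside 2.52% and 2.46% of all genes, none was lower than both past the yardstick and 1 was higher. That was Septin2, a filament protein of the cytokinetic furrow, at 7073 on the array labelled antisense against 5008 scrambled and 4887 untreated. Ranked by the smaller of their differences from the controls, and among the 61 above the floor on each array, the lowest was Smc3, a cohesin subunit, at 925 against 2112 and 1867, past its yardstick of 1.11 against scrambled and not against untreated. It was followed by Cdc23, a subunit of the anaphase-promoting complex read by a family probe set, at -0.52 from scrambled and -0.88 from untreated, and by the 14-3-3 gene Ywhae at -0.44 and -0.65. The highest 3 of the 61 were Foxm1, Septin2 and Mnat1. Kifc1, Pcnt and Plk4 were also above both controls, by at least as much as Mnat1 in that ranking, but were below the floor on a control array. Foxm1, a transcription factor that drives many G2/M genes, read 1761 against 1229 and 1114 within the yardstick, and Mnat1, a subunit of the Cdk-activating kinase, was 0.60 above scrambled and 0.35 above untreated.

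By role, the other genes were uneven. The counts below stand beside 31.7% of all genes lower than both controls and 37.4% higher. Of 8 cohesin and condensin genes 5 were lower than both controls and 1 higher, and of 22 spindle and centrosome genes 11 were lower and 5 higher. Of 11 genes of the anaphase-promoting complex and separase 4 were lower and 4 higher, and of 6 other kinetochore genes 3 were lower and 0 higher. The largest role, with 26 other mitotic kinases, cyclins, phosphatases and regulators, had 8 lower and 10 higher. Of 31 DNA replication genes 15 were lower than both and 5 higher, at a median of -0.13 from untreated and -0.05 from scrambled. Mcm5 and Mcm7 of the replicative helicase were lower than both past the yardstick, 2 of 31 beside 2.52% of all genes. None of the 31 was higher than both past it, beside 2.46%. A G1 list held cyclins, their kinases and other genes, among them Rb1, Tfdp1 and Cdc34. Of its 9 genes above the floor 3 were lower and 4 higher, with medians of 0.03 and 0.01. Cdc34 was higher than both past the yardstick, 1 of 9 beside 2.46% of all genes. The difference between these lists and the mitotic set was not tested.

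**Figure D5:**
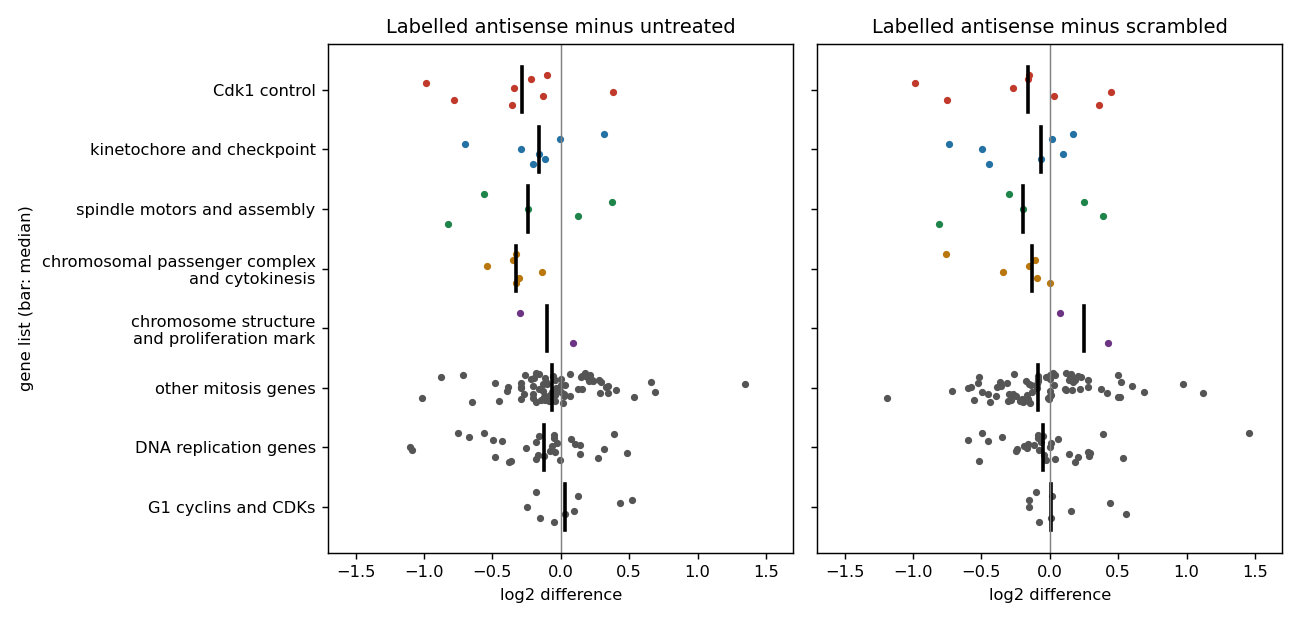
Log2 difference of the array labelled antisense from the untreated (left) and the scrambled array (right), 1 point per gene above the floor, with the median of each list as a bar. The first 5 rows are the roles of the mitotic set and the last 3 are other mitosis genes, DNA replication genes and G1 genes. Medians of the first 4 roles lie below 0 in both panels, and the median of Top2a and Mki67 lies below 0 only against untreated. With spike-in scaling the median of the whole mitotic set is 0.36 in both comparisons, and that of all genes is 0.59 against untreated and 0.48 against scrambled.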

How the data were processed

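The authors deposited 1 table of intensity values on a linear scale for 12654 probe sets and 3 arrays, of which 66 are controls. From 24.8% to 27.9% of the deposited intensity values of an array are at or below 0. With 2% trimmed off each end, every array averages 1500.0, so the authors had scaled them. No source used here names the software. For this report each array was scaled to a common trimmed mean over the 12588 other probe sets. The floor, 2 robust standard deviations of the values below 0, was set to 595.9 and log2 taken. Symbols came from the platform annotation, in which 10276 probe sets had 1 symbol and 10257 of them matched RefSeq gene identifiers. Another 363 had several and named no gene. With 1 array per group no test was possible, and the number of arrays limits the precision.

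Every member is named. Full values were to be given for the 4 of each role farthest from the mean of the controls, for members with several probe sets and for Cdk1, and for the 3 highest and 3 lowest other mitosis genes. Other members' values were added. The members and lists were chosen with earlier results of these data known. The script was tested on simulated data. Alternatives changed the floor, scaling, filter, probe set choice and yardstick. Python 3.11.15, pandas 2.3.3 and numpy 2.4.6 were used.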

Additional observations from a re-analysis of the deposited data

How the results depend on the processing

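In all, 11 alternatives were run. Scaling to the 6 spike-in controls, whose signal on the array labelled antisense stood 0.63 below untreated and 0.51 below scrambled, changed the mitotic set most. Its medians became 0.36 against untreated, 0.36 against scrambled and 0.061 between scrambled and untreated. The 28 members then split into 4 lower than both controls and 23 higher, beside 5.04% and 82.4% of all genes. Past the yardstick 0 were lower and 6 higher against untreated, 0 lower and 7 higher against scrambled, and 0 lower and 5 higher against both. The share of all genes past the yardstick was not counted in the alternatives, so the yardstick counts in this section have no background beside them. The other mitosis genes had medians of 0.53 and 0.42, with 2 lower than both and 60 higher. That common shift is part of the scaling itself. Scaled to the median of probe sets above the floor, 0 members were higher past the yardstick against untreated, 1 against scrambled and 0 against both. With quantile normalization, and with a yardstick of 100 genes, 4 were lower against untreated. With the mean over probe sets 1 was higher against scrambled. Without suffixed probe sets 1 was lower than both, since Plk1 has no other. In all settings but the spike-in scaling, 15 to 19 members were lower than both controls and 5 to 6 higher, and the medians ran from -0.29 to -0.21 against untreated and from -0.18 to -0.10 against scrambled. No paired analysis was possible because each group has 1 array. Low signal limits Cdc25c, Tacc3, Ttk, Ect2 and Wee1.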
